A study of Rattus norvegicus with 6 samples.

Results

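The 7 genes described here encode the creatine kinase system of the rat: the mitochondrial creatine kinases Ckmt1 and Ckmt2, the cytosolic creatine kinases Ckb and Ckm, the synthesis enzymes Gatm and Gamt, and the creatine transporter Slc6a8. Probes were taken by symbol where their NM or XM accession maps to a rat gene, with 1 probe per gene chosen by its mean log2 signal over the 6 files, the highest being kept, and the set itself was selected on earlier results of these data, in which the rise of Ckmt1 was known. Each of the 7 had a single probe and a single spot on the array, so the rule left no choice of probe, and all 7 were among the 10001 coding genes tested. RNA of H9c2 cells, a myoblast-derived line established from the heart of rat embryos and labelled myocytes here, was measured on 1-colour (Cy3) Arraystar lncRNA and mRNA arrays. The hypoxia/reoxygenation (H/R) group held 3 samples of cells without serum and glucose that spent 1 h in 1% oxygen, 5% carbon dioxide and 94% nitrogen and then 3 h at normal oxygen, and the control group held 3 samples of normoxic cells. Before that, both groups grew with 10% serum and glucose at 4500 mg/L. Whether control cells also lost serum and glucose is not stated, so oxygen and nutrients cannot be told apart. H9c2 cells are proliferating cells, not beating heart muscle. The comparison asked which transcripts change in level after H/R.

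Creatine kinases move a phosphate group between ATP and creatine. The mitochondrial forms charge creatine where ATP is made, and the cytosolic forms return the phosphate to ATP where it is used, so phosphocreatine serves as a store and a shuttle of energy in muscle and brain. Creatine itself is made from arginine and glycine by the product of Gatm, whose guanidinoacetate is methylated by the product of Gamt with S-adenosylmethionine as the donor, and cells take creatine up through the sodium-dependent transporter Slc6a8.

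Replicates 2 and 3 of each group came from the same slide position in different scans. In each group that pair had 36 spots of uneven local background in common, where none of the 13 remaining pairs of files had more than 1. Their spots differed by a median of 0.0552 (H/R) and 0.0459 (control) on the log2 scale, while pairs of different positions within a group differed by 0.194 to 0.231. The series names 3 independent experiments per group, but replicates 2 and 3 look like repeat scans, so they were averaged and counted as 1 array, leaving n = 2 arrays per group. The p-values rest on how far these arrays differ, and that spread may be only technical. Signals are given as a percentage of the array's 75th percentile, and changes as the H/R minus control difference of their log2 values with the moderated SE of limma. Of 15899 probes tested 3769, or 23.7%, passed an adjusted p of 0.05, 2358 higher and 1411 lower in H/R. With arrays scaled to their median the split was 1566 higher and 2253 lower, and the median change of all probes was -0.06 in place of 0.07, so small changes are to be read against that shift. With normexp correction and 75th percentile scaling 0 probes passed, so every call named below is lost in that setting (2044 probes had an unadjusted p under 0.05). Since every array had its own place on the slide, position cannot be told apart from group.

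Of the 7 genes, Ckmt1, Ckm and Gamt rose in H/R, none fell at an adjusted or an unadjusted p of 0.05, and Ckmt2, Ckb, Gatm and Slc6a8 did not pass the test. At an unadjusted p of 0.05 Ckmt2 was higher as well (limma unadjusted p = 0.0442). Ckmt1, the ubiquitous mitochondrial creatine kinase known from brain and epithelia, stood 12.1-fold higher in H/R. The muscle creatine kinase Ckm was 2.32-fold higher and the methyltransferase gene Gamt 1.69-fold higher. Among all coding genes tested 16.2% were called higher and 9.62% lower in H/R. Because the large rise of Ckmt1 was known when the genes were put together, the count of 3 of 7 is a description and carries no test. The median change of the 7 was 0.53 on the log2 scale and that of all 10001 genes was 0.07. In these bulk samples a higher level per cell and more cells of a kind that has the transcript cannot be told apart.

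**Figure D1:**
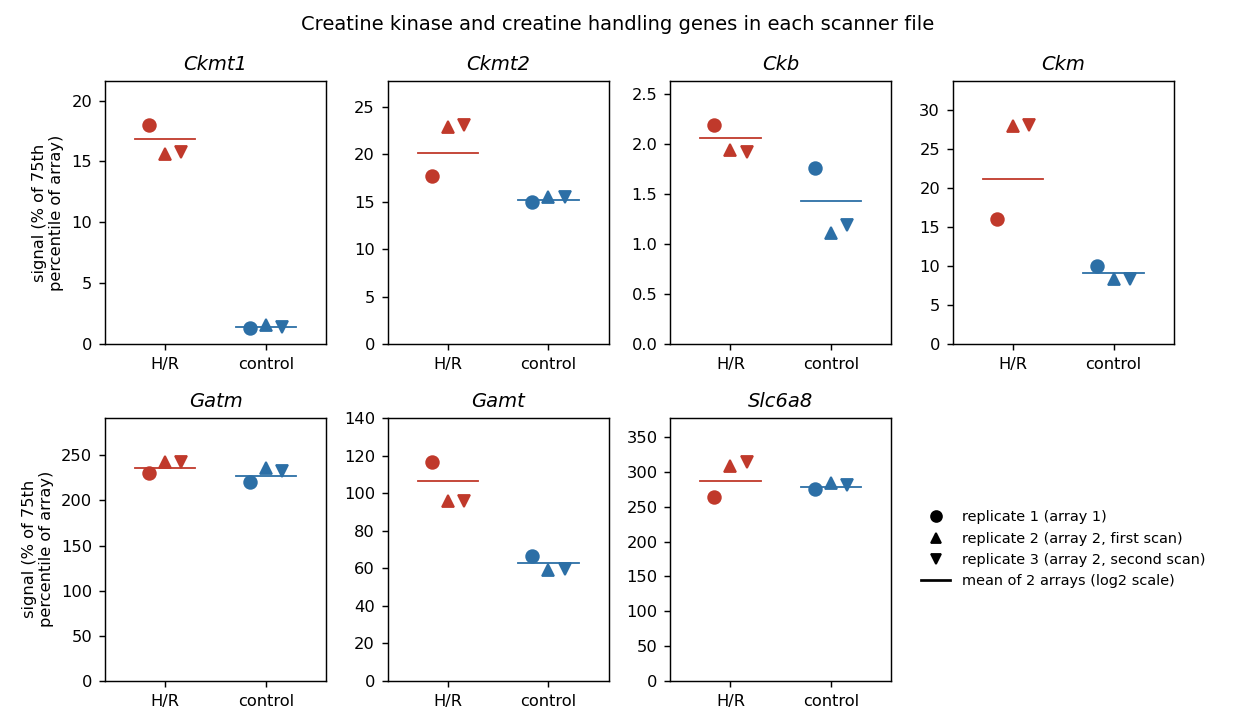
Signal of the 7 genes in each scanner file as a percentage of that array's 75th percentile (y axes start at 0 and differ between panels), with H/R in red and control in blue; circles are array 1, triangles are the repeat scans of array 2, and lines are means of the 2 arrays on the log2 scale. Ckmt1 lay between 15.6% and 18.0% in the H/R files and between 1.30% and 1.55% in the control files, whereas the groups overlapped for Gatm and Slc6a8.

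Ckmt1 was dim in control cells. Its scaled signal was 18.0%, 15.6% and 15.8% in H/R replicates 1 to 3 and 1.30%, 1.55% and 1.42% in control replicates 1 to 3. Every H/R file lay far above every control file, with no overlap, and the repeat scans of an array were close to each other. In processed intensity units the spot read 319, 399 and 416 in H/R files and 32.0, 32.5 and 29.6 in control files. It was scored well above background in all 6 files. The control signals were 2.37 to 3.39 times the dimmest probe so scored on the same array, and the H/R signals 37.6 to 55.2 times, so the level in control cells sat near the lower end of what the arrays measured.

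The change of Ckmt1 was 3.60 ± 0.13 on the log2 scale (SE, n = 2 arrays per group, limma adjusted p = 0.00155). Its 95% interval ran from 9.65-fold to 15.2-fold. H/R array 1 lay 13.0-fold and H/R array 2 11.3-fold above the control mean, so the arrays of the treated group gave nearly the same rise. By fitted rise Ckmt1 ranked 10 among the 10001 coding genes tested. The fold depended on how background was removed: with normexp correction and quantile normalization the change was 1.73 (adjusted p = 0.000762), and with normexp correction and 75th percentile scaling it was 2.37 and did not pass (adjusted p = 0.294). Both kept the direction.

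The upstream sequences of the 3 genes that rose are shown because they can be searched for sites of factors known to respond to oxygen, inflammation and muscle differentiation. Each is the 250 bases before the RefSeq start on GRCr8, and capitals mark motif matches on either strand. Ckmt1 lies at chr3:128784232-128784481 on the plus strand, Ckm at chr1:88189211-88189460 on the plus strand and Gamt at chr7:10099034-10099283 on the plus strand.
Ckmt1: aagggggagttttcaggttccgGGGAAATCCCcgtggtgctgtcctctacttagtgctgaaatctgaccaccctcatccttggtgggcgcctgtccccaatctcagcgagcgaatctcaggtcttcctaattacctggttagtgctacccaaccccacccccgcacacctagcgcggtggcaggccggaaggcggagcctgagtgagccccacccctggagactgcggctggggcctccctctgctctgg
Ckm: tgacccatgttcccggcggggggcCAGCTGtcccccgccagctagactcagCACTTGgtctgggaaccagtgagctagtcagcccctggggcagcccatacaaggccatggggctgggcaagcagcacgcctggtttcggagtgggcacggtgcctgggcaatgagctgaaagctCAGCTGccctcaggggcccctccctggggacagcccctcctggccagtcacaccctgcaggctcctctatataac
Gamt: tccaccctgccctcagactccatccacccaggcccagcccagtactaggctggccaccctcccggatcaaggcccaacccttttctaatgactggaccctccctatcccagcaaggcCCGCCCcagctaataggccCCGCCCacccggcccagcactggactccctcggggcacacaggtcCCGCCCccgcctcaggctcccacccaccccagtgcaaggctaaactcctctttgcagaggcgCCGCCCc

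The motifs searched were the hypoxia response element core ACGTG, the E-box CANNTG bound by myogenic factors, the GC box GGGCGG, the TATA box TATAAA, the NF-kB site, the core of the interferon-stimulated response element and the cyclic AMP response element TGACGTCA, all on both strands. No matches overlapped each other. The Ckmt1 sequence held 1 match, to the NF-kB letters, 228 to 219 bases before the start, and such a match stood in 1.0% of 33469 rat promoters of the same length. The Ckm sequence held 3 E-boxes, a motif found in 65.5% of promoters. The Gamt sequence held 4 GC boxes on the minus strand, with at least 1 in 30.5% of promoters. G and C made up 62.0%, 65.6% and 67.6% of the Ckmt1, Ckm and Gamt sequences, against a median of 51.2% over all these promoters. The shares are therefore not those of promoters of like base composition. The hypoxia core, present in 16.6% of promoters, matched none of these 3 sequences and matched that of Gatm once, 103 to 99 bases before its start. A match is only a string of letters, and no binding was measured in these data.

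Ckmt2, the sarcomeric mitochondrial creatine kinase of heart and skeletal muscle, did not pass the test. Its scaled signal was 17.7%, 22.9% and 23.1% in H/R replicates 1 to 3 and 15.0%, 15.5% and 15.5% in control replicates 1 to 3. All H/R files lay above all control files, but H/R array 1 was close to the controls, at 1.16 times their mean against 1.51 for H/R array 2. The change was 0.41 ± 0.15 (1.33-fold, adjusted p = 0.116) with a 95% interval from 1.01-fold to 1.74-fold. That interval did not overlap the one of Ckmt1; the difference between their changes was not tested, and the levels of different probes cannot be set against each other.

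Ckm, the muscle form that sits at the sarcomere and is induced when myoblasts differentiate, rose. Its scaled signal was 16.1%, 27.9% and 28.1% in H/R replicates 1 to 3 and 9.96%, 8.38% and 8.39% in control replicates 1 to 3. The groups did not overlap, and the arrays of the H/R group differed from each other by 0.80 on the log2 scale, the widest gap within a group among the 7 genes. The change was 1.22 ± 0.28 (adjusted p = 0.0398), with a 95% interval from 1.40-fold to 3.87-fold. H/R array 1 lay 1.76-fold and H/R array 2 3.07-fold above the control mean. The call was lost with quantile normalization (1.16, adjusted p = 0.053), with a refit of the authors' deposited table (1.15, adjusted p = 0.0635), with normexp correction and 75th percentile scaling (1.34, adjusted p = 0.275) and with no filter on dim probes (adjusted p = 0.135). It was also lost when H/R array 2 was left out (0.81, adjusted p = 0.0757), control array 2 (1.09, adjusted p = 0.11) or control replicate 1 (1.34, adjusted p = 0.0904).

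Ckb, the brain-type cytosolic form found in many tissues, gave control signals of 2.43 to 3.20 times the dimmest probe scored well above background. Its scaled signal was 2.19%, 1.94% and 1.92% in H/R replicates 1 to 3 and 1.76%, 1.11% and 1.19% in control replicates 1 to 3. The lowest H/R file stood above the highest control file, control array 1, by a small margin. The change was 0.53 ± 0.22 (1.44-fold, adjusted p = 0.15) and did not pass, with an interval from 0.967-fold to 2.16-fold. Control array 1 lay 0.61 above control array 2 on the log2 scale, so the control arrays differed from each other by more than the fitted change. Without control replicate 1 the change was 0.84 and passed (adjusted p = 0.0394). Leaving out control array 2 gave 0.22 (adjusted p = 0.306).

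Of the genes of creatine synthesis, the second step rose and the first did not pass. Gamt had scaled signals of 117%, 96.1% and 96.0% in H/R replicates 1 to 3 and 66.4%, 59.1% and 59.5% in control replicates 1 to 3. The H/R files all lay well above the control files. The change was 0.76 ± 0.14 (adjusted p = 0.0225), with an interval from 1.32-fold to 2.17-fold. It kept its size in every fit, between 0.61 and 0.90, but each of the 4 fits that left 1 array in a group ended the call, with adjusted p between 0.0522 and 0.0927, as did testing with no filter on dim probes (adjusted p = 0.1) and normexp correction with 75th percentile scaling (adjusted p = 0.314).

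Gatm, which encodes the mitochondrial amidinotransferase that starts creatine synthesis and sets its rate, had scaled signals of 230%, 242% and 243% in H/R replicates 1 to 3 and 220%, 236% and 233% in control replicates 1 to 3. The groups overlapped. The change was 0.06 ± 0.10 (adjusted p = 0.695), and its interval of 0.873-fold to 1.24-fold leaves out a change as large as that of Gamt. The median change of all genes was 0.07, so Gatm lay at the middle of all genes.

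Slc6a8, the transporter that brings creatine in from the medium, did not pass either. Its scaled signal was 264%, 309% and 315% in H/R replicates 1 to 3 and 275%, 284% and 282% in control replicates 1 to 3. H/R array 1 was the lowest of all files and H/R array 2 the highest. The change was 0.04 ± 0.12 (adjusted p = 0.819), with an interval from 0.832-fold to 1.27-fold.

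Across the set, 5 genes had every H/R file above every control file and 2 overlapped. Among all 10001 coding genes 38.2% had every H/R file above every control file, and the repeat scans are part of that share. The genes did not follow 1 array. H/R array 2 was the higher for Ckm, Ckmt2, Slc6a8 and Gatm, and H/R array 1 was the higher for Ckmt1, Ckb and Gamt.

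**Figure D2:**
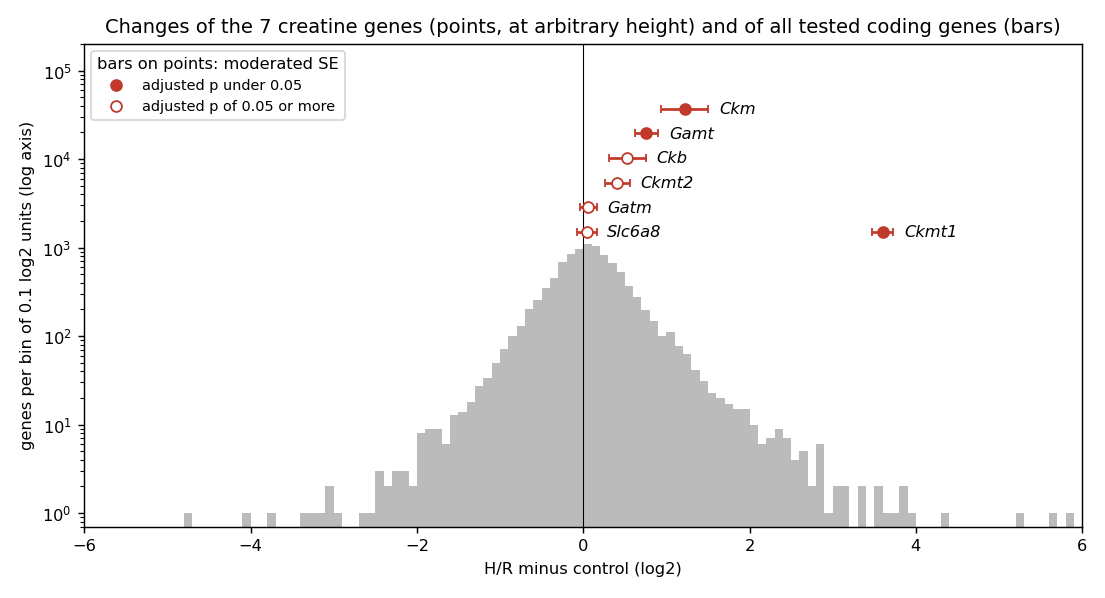
H/R minus control changes on the log2 scale of the 7 genes (red points with moderated SE, filled where the adjusted p is under 0.05, heights arbitrary) above the distribution over 10001 coding genes (grey bars, log axis). Ckmt1, at 3.60, lies in the far right tail, Ckm and Gamt lie on the right shoulder, and Gatm and Slc6a8 lie at the peak.

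By the distance between profiles over the 4 arrays, each centred on its own mean, the coding genes nearest to Ckmt1 were Epn3, which encodes an epsin of endocytosis (distance 0.07 on the log2 scale), Lefty1, a Nodal antagonist (0.30), Olfml2a (0.33), the neutrophil chemokine gene Cxcl1 (0.34) and the interferon-induced gene Ifit1 (0.36). Epn3 rose 12.1-fold (adjusted p = 0.00155) and was well above background in 2 of 3 control files; with normexp correction and quantile normalization its change was 1.58 on the log2 scale. Lefty1 stayed near background in every control file, where it was never scored as well above it, and was at least 4.96-fold higher in H/R. For such a bound, a dim array contributes its own reading of the probe or, if that is larger, the weakest signal that it scored as well above background. Nearest to Ckm were Snrnp35, Fam107a and the sulfotransferase gene Sult1a1 (0.22 to 0.27), and nearest to Gamt were Cdc42ep5, Synrg and Defa24 (0.03 to 0.05). Fam107a was scored well above background in H/R files alone and was at least 2.06-fold higher there. Lefty1 and Fam107a entered the test through the group in which they are high, so their places here are no separate support. Over 4 arrays the distance rests largely on the size of the change.

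Of the 14 nearest tested neighbours of the 7 in the RefSeq gene order, 3 rose and 0 fell. The other 11 differed by -0.33 to 0.52 on the log2 scale. Among all coding genes tested 16.2% were called higher and 9.62% lower, so the count of neighbours is a description only. Next to Ckmt1, the inositol pyrophosphate kinase gene Ppip5k1 differed by -0.06 ± 0.10 (adjusted p = 0.707), and the sperm calcium channel gene Catsper2, on the other side with 1 gene between, rose by 0.55 ± 0.09 (adjusted p = 0.018). The other neighbours that rose were Trappc6a near Ckm (0.79, adjusted p = 0.0129) and the nucleoside transporter gene Slc28a2 near Gatm (1.22, adjusted p = 0.0464), which did not pass with normexp correction and quantile normalization (0.52, adjusted p = 0.0611).

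Adenylate kinases share with creatine kinases the task of balancing ATP, ADP and AMP. Of 8 tested, 3 rose and 1 fell, and the median of all 8 was 0.06. This count and those of the lists below stand beside 16.2% called higher and 9.62% lower among all coding genes tested. They are descriptions and carry no test. Ak7, an isoform of motile cilia, rose by 1.72 ± 0.12 (adjusted p = 0.00269), Ak8 by 0.55 ± 0.13 (adjusted p = 0.0375), and Ak1, the main cytosolic form of muscle, by 0.41 ± 0.10 (adjusted p = 0.0454). Ak8 passed in 10 of 22 alternatives, and its change was 0.37 with quantile normalization (adjusted p = 0.076) and 0.02 with normexp correction and quantile normalization (adjusted p = 0.812). The nuclear form Ak6 fell by 0.40 ± 0.10 (adjusted p = 0.0434). Ak4, a mitochondrial isoform, was well above background in 2 H/R files and 0 control files and was not tested. Its scaled signal was 0.885%, 1.13% and 1.14% in H/R replicates 1 to 3, of which replicates 2 and 3 count as 1 array. In control files it was 0.763% to 0.827%. With arrays scaled to the median 1 of the 8 rose and 2 fell.

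Mitochondrial creatine kinase works beside the adenine nucleotide translocase of the inner membrane and the porin of the outer membrane. Of 11 genes of mitochondrial ATP and phosphate exchange 1 rose and 3 fell, with a median of -0.26. The porin gene Vdac1 fell by 1.67 ± 0.36 (adjusted p = 0.0326). Its probe was dim, at 0.767% to 1.28% of the 75th percentile in H/R files and 2.37% to 4.16% in control files. Vdac2 and Vdac3, the other porin genes of the list, had brighter probes and did not pass. They differed by -0.29 ± 0.16 and 0.12 ± 0.12 (adjusted p = 0.252 and 0.513). The ATP-Mg/phosphate carrier genes Slc25a25 and Slc25a24 fell by 0.58 ± 0.11 and 0.44 ± 0.10 (adjusted p = 0.0249 and 0.0345). Tspo, an outer membrane protein, rose by 0.60 ± 0.12 (adjusted p = 0.0296). The translocase genes Slc25a4 and Slc25a5 differed by -0.08 ± 0.16 and -0.26 ± 0.13 and did not pass (adjusted p = 0.757 and 0.19). With arrays scaled to the median 0 rose and 4 fell. After normexp correction the change of Vdac1 was -0.53 with quantile normalization (adjusted p = 0.043) and turned to 0.49 with 75th percentile scaling, where it did not pass.

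Genes that handle the precursors of creatine were mixed. Of 14 genes of arginine, glycine and ornithine handling 4 rose and 1 fell, with a median of -0.06. Arg1, which encodes the cytosolic arginase that splits arginine, rose by 1.99 ± 0.11 (adjusted p = 0.00205). That probe was dim in control cells, and with normexp correction the change was 0.64 after quantile normalization (adjusted p = 0.00461) and 1.51 after 75th percentile scaling (adjusted p = 0.496). Asl, which makes arginine from argininosuccinate, rose by 0.72 ± 0.14 (adjusted p = 0.0251). The glycine transporter gene Slc6a9 rose by 0.72 ± 0.11 (adjusted p = 0.0136). The dimethylarginine hydrolase genes went opposite ways, with Ddah2 up by 1.12 ± 0.10 (adjusted p = 0.00514) and Ddah1 down by 1.80 ± 0.12 (adjusted p = 0.00261). Oat and Odc1, which act on ornithine, the by-product of the Gatm reaction, differed by -0.30 and -0.03 and did not pass (adjusted p = 0.146 and 0.839), and Arg2 was not well above background in any file.

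Of 12 genes that supply or use S-adenosylmethionine, the methyl donor of Gamt, 1 rose and 1 fell, with a median of -0.03. The nicotinamide methyltransferase gene Nnmt rose by 0.51 ± 0.09 (adjusted p = 0.0209), and Cth, an enzyme of cysteine synthesis, fell by 0.40 ± 0.09 (adjusted p = 0.0377). With arrays scaled to the median 0 rose and 3 fell. Mat2a, which makes S-adenosylmethionine outside the liver, differed by -0.47 ± 0.14 (adjusted p = 0.0708).

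Of 11 subunits of the energy sensor AMPK and regulators of mitochondrial biogenesis 0 rose and 2 fell, with a median of -0.18. The catalytic subunit gene Prkaa2 fell by 0.57 ± 0.10 (adjusted p = 0.0211) and the coactivator gene Ppargc1b by 0.56 ± 0.10 (adjusted p = 0.0209). At an unadjusted p of 0.05 the list had 1 gene higher and 4 lower, and with arrays scaled to the median 0 rose and 4 fell. Prkaa2 and Ppargc1b were above 0 without passing after normexp correction with 75th percentile scaling (0.26 and 0.65). Ppargc1a was not well above background in any file, and the nuclear receptor gene Esrra differed by -0.25 ± 0.10 (adjusted p = 0.129).

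Slc6a8 belongs to the SLC6 family of sodium- and chloride-coupled transporters. Of 8 other family members tested 4 rose and 0 fell (1 fell at an unadjusted p of 0.05, and 1 with arrays scaled to the median), with a median of 0.47. The serotonin transporter gene Slc6a4 rose by 1.08 ± 0.09 (adjusted p = 0.00416) and the proline transporter gene Slc6a7 by 1.65 ± 0.12 (adjusted p = 0.00298), beside Slc6a9. With normexp correction and quantile normalization these changes were 0.34 for Slc6a4 and 0.50 for Slc6a7 (adjusted p = 0.0159 and 0.00685). The fourth, the glycine transporter gene Slc6a5, was scored well above background in H/R files alone and was at least 1.58-fold higher there; it entered the test through the group in which it is high, so its call is no separate support. The taurine transporter gene Slc6a6 differed by -0.33 ± 0.20 (adjusted p = 0.276).

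**Figure D3:**
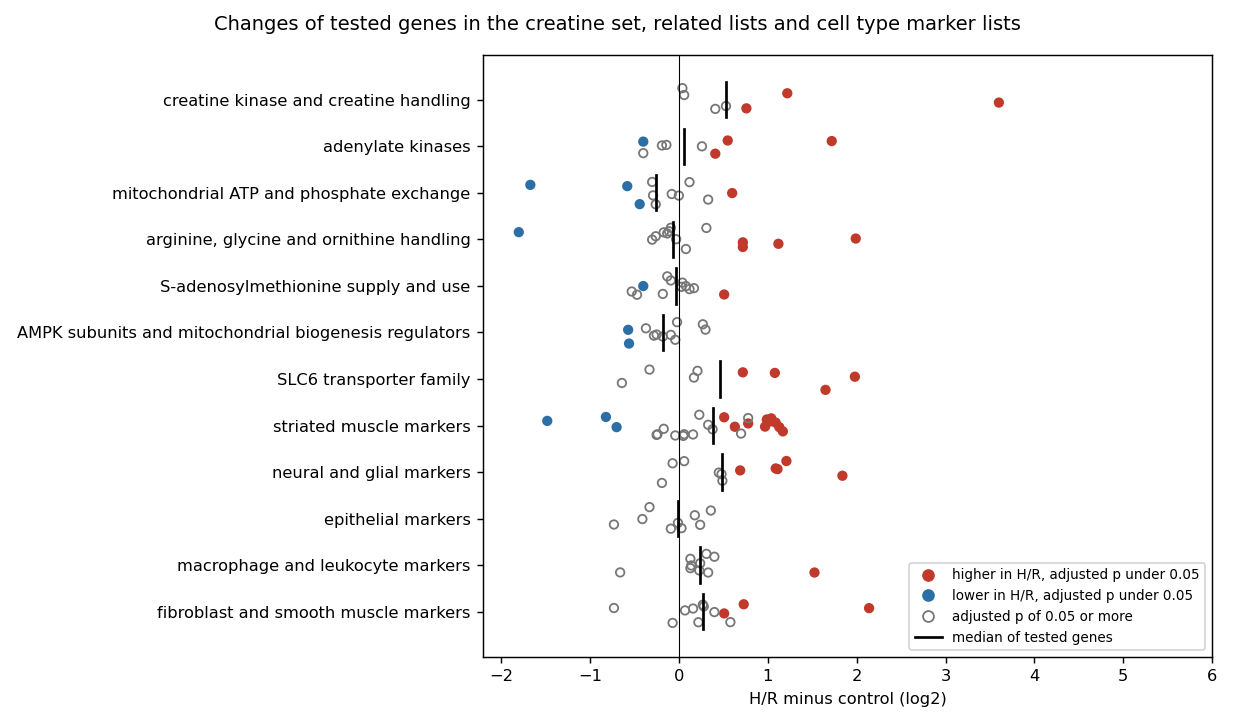
H/R minus control changes on the log2 scale of the tested genes of each list, 1 point per gene (fitted values; red higher and blue lower at an adjusted p under 0.05, open otherwise) with the median as a black bar. The creatine set has the point farthest to the right, Ckmt1 at 3.60, while the medians of the related lists lie between -0.26 and 0.49.

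Markers of muscle were measured because Ckm and Ckmt2 are muscle genes. Of 26 striated muscle markers on the array 25 were tested and 24 of those were well above background in all 6 files, and Myf6 was not well above background in any file. In H/R 10 of the 25 rose and 3 fell, with a median of 0.38, and the summed signal of the list was 5078% to 5424% of the 75th percentile in H/R files and 5253% to 5584% in control files. The cardiac troponin gene Tnnt2 rose by 1.13 ± 0.09 (adjusted p = 0.00379), the myosin genes Myh2 and Myh6 by 1.09 ± 0.11 and 0.99 ± 0.09 (adjusted p = 0.00538 and 0.00527). Myod1, the master regulator of myogenesis, fell by 1.48 ± 0.18 (adjusted p = 0.00814), Mef2d by 0.82 ± 0.18 (adjusted p = 0.0338) and Myh1 by 0.70 ± 0.09 (adjusted p = 0.0106). Myog and Actc1 differed by 0.06 ± 0.10 and 0.05 ± 0.11 and Des by 0.70 ± 0.64, and none of these passed (adjusted p = 0.691, 0.745 and 0.454). The pattern of Ckm, higher on H/R array 2 than on H/R array 1, recurred in some muscle markers, picked here after their values were seen. Myoglobin, Mb, had scaled signals of 39.9%, 61.8% and 63.2% in H/R replicates 1 to 3 and 24.3%, 24.5% and 24.9% in control replicates 1 to 3 (change 1.03 ± 0.23, adjusted p = 0.0349). Des had 72.4%, 272% and 278% in H/R replicates 1 to 3 and 76.1%, 96.2% and 102% in control replicates 1 to 3. Myl3, which was called, and Tnni3, Myl2 and Myh7, which were not, also stood higher on H/R array 2. Tnnt2, Myh2 and Myh6 were about level between the H/R arrays. Other markers were lower on H/R array 2, such as Mef2d (90.8%, 74.4% and 76.6% in H/R replicates 1 to 3) and Tnnt3 (53.4%, 48.5% and 48.2%). The pattern was not limited to muscle markers, since Snrnp35 and Sult1a1, named above as nearest to Ckm, had it too. One called muscle marker, Chrna1, was scored well above background in H/R files alone. It entered the test through that group, so its call is no separate support. With H/R array 2 left out, 4 muscle markers rose and 1 fell. The part of these markers in the rise of Ckm was not tested.

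Ckmt1 and Ckb are known from brain and epithelia, and the protocol text, at odds with the rat cell line of the other labels, speaks of RNA taken from the cortex of mice, so markers of those tissues were read too. Of 22 neural and glial markers on the array 9 were not well above background in any file, among them the neuronal genes Rbfox3, Map2, Gad1, Gad2 and Slc17a7 and the astrocyte gene Aqp4. Of 11 tested 5 rose, 6 were not called and 0 fell (also 0 at an unadjusted p of 0.05), with a median of 0.49. The summed signal of the list was 579% to 618% in H/R files and 237% to 243% in control files. Slc1a3 alone read 300% to 340% in H/R files and 87.4% to 90.1% in control files, so the sums rest largely on that gene. The glutamate transporter gene Slc1a3 rose by 1.84 ± 0.11 (adjusted p = 0.00205), the tubulin gene Tubb3 by 1.21 ± 0.10 (adjusted p = 0.00371) and Nefh by 1.11 ± 0.09 (adjusted p = 0.00415). S100b, one of the 5, was scored well above background in H/R files alone and was at least 1.61-fold higher there; having entered the test through that group, its call is no separate support. The part of these markers in the rise of Ckmt1 was not tested.

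Of 9 epithelial markers tested 0 passed, with a median of -0.01 and summed signals of 689% to 697% in H/R files and 704% to 724% in control files. At an unadjusted p of 0.05 1 was higher and 3 were lower, and with arrays scaled to the median 3 fell. All 9 were well above background in every file, among them Krt8 at 400% to 489% and Ocln at 40.6% to 55.4% of the 75th percentile. Krt18 and Cldn3 were the only 2 genes of the list on the array that were not well above background in any file. Of 10 macrophage and leukocyte markers tested 1 rose, Cd74, by 1.52 ± 0.17 (adjusted p = 0.00743). Cd74 was scored as well above background in 2 of 3 control files, and its change was 0.32 with normexp correction and quantile normalization. The other 9 tested markers were well above background in every file, among them Cd14 at 81.8% to 92.3% and Cd3e at 27.5% to 32.2%. Ptprc, Adgre1 and Itgam were among 4 genes of the list that were not well above background in any file. The summed signal of the list was 208% to 210% in H/R files and 185% to 194% in control files. Of 12 fibroblast and smooth muscle markers 3 rose and 0 fell (also 0 at an unadjusted p of 0.05), with summed signals of 19534% to 20934% in H/R files and 16440% to 19454% in control files. These were the matrix proteoglycan genes Lum (2.14 ± 0.10, adjusted p = 0.00182) and Dcn (0.73 ± 0.14, adjusted p = 0.0257) and the growth factor receptor gene Pdgfrb (0.51 ± 0.11, adjusted p = 0.0338).

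**Figure D4:**
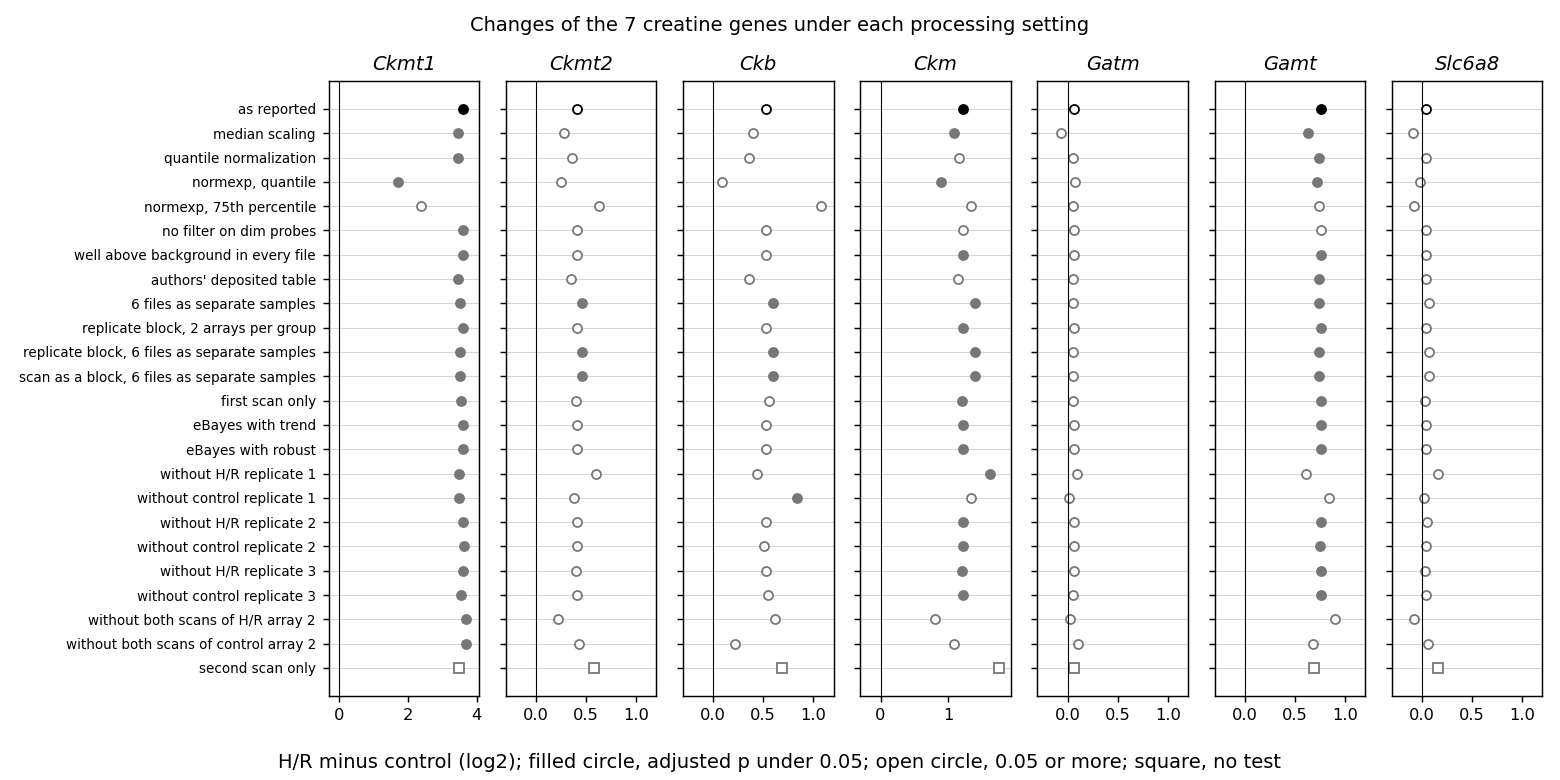
H/R minus control change on the log2 scale of each of the 7 genes (columns, with their own x axes) under each way of processing (rows); filled circles passed an adjusted p of 0.05, open circles did not and squares have no test. Ckmt1 stayed at or above 1.73 in every row, Ckm and Gamt stayed above 0 but lost their calls in several rows, and Gatm and Slc6a8 lay around 0.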

How the data were processed

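The authors deposited, per the file headers, intensity values from Agilent Feature Extraction 11.0.1.1, in which each spot's processed signal has background and spatial trend removed. Nothing was normalized between these files. They also deposited log2 values of 16841 probes; these correlated with the log2 scanner values at 0.9998 to 0.9999 across probes, had column medians of 9.182 to 9.187 and were not centred by gene, and how they were normalized is unknown here.

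Per file, 58.4% to 71.1% of 42136 non-control spots were well above background and 0 saturated. The share was 71.1% and 69.4% in H/R replicates 2 and 3 and 58.4% to 61.7% in the other files. The lowest processed signal so scored was 7.2 to 8.5 in H/R files and 9.2 to 13.5 in control files. Scoring in H/R files alone is to be read with that limit. The number of arrays sets the precision. Outlier spots were dropped, spots averaged per probe as log2, and each file's 75th percentile over probes subtracted. Probes well above background in all 3 files of a group were tested. Replicates 2 and 3 were averaged, then lmFit and eBayes of limma 3.58.1 (R 4.3.3, two-sided, Benjamini-Hochberg over 15899 probes, 2 residual and 2.86 prior degrees of freedom) were run, after being tested on simulated data. Python 3.11.15 and matplotlib 3.10.9 drew the figures. Accessions, without versions, matched the GRCr8 RefSeq table for 14205 of 15251 coding probes, and RefSeq promoters matched all 7 genes. The files used hold no mean signal, so normexp (offset 50) took the median signal. Named genes were the 7, the nearest profiles and neighbours, and a few set by name. From each list they were the 3 called genes of smallest adjusted p and any called where 5 or fewer moved one way. Undetected markers, and uncalled markers named as detected, were chosen after their values were seen. The genes, lists and motifs were chosen with earlier results of these data known. Some genes that this rule names are not reported here.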

Additional observations from a re-analysis of the deposited data

How the results depend on the processing

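Ckmt1 stayed higher in H/R in all 23 alternatives and passed in 21 of the 22 with a test; under normexp correction with 75th percentile scaling it was 2.37 and did not pass, as did 0 probes there (2044 at an unadjusted p of 0.05). Of the 7 genes 3 rose. The count was 0 under that setting, 1 with no filter on dim probes, and 5 with the 6 files as separate samples, with or without a replicate block or scan block. Ckm also lost its call with quantile normalization and with the authors' deposited table, so the count was below 3 there. The count was below 3 too without H/R array 2 or without control array 2, both fits chosen after seeing the data. Fits without replicate 1 of a group changed which genes passed. The probes past the threshold, 3769, became 0, 594, 8309 (6 files), 8426 (replicate block, 6 files), 7423 (scan block) and 1008 (without H/R array 2), and 1091 to 3778 when 1 file was left out. Replicate numbers gave only 2 pairs (r = 0.153), which share a number only; with the replicate block on 2 arrays per group 3886 probes and 3 of the 7 genes passed. Signs turned both for values near 0 and for Des and the called Vdac1, Prkaa2 and Ppargc1b, which passed in neither direction where they turned: with median scaling Gatm -0.07, Slc6a8 -0.09, Myog -0.07 and Actc1 -0.07; with normexp and quantile Slc6a8 -0.02, Odc1 0.01 and Myog -0.04; with normexp and 75th percentile Slc6a8 -0.08, Vdac1 0.49, Prkaa2 0.26 and Ppargc1b 0.65; without H/R array 2 Slc6a8 -0.08, Myog -0.01, Des -0.26 and Ppip5k1 0.02; without control array 2 Odc1 0.06 and Actc1 -0.01. Leaving out 1 file gave -0.09 to 0.14 for Slc25a4 and -0.02 to 0.12 for Actc1. The cause was not tested. A fit leaving 1 array in a group assumes that it varies like the others. The second scan alone has no residual degrees of freedom and no test. Other probes of a gene could not be tried, since each of the 7 has 1 probe. The low signal of Ckmt1 and Ckb over background in control cells limits their folds.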
